A study of Mus musculus with 6 samples.

Results

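The urea cycle, arginine and agmatine enzymes are 10 mouse genes, Nags, Cps1, Otc, Ass1, Asl, Arg1, Arg2, Oat, Odc1 and Agmat. They were found by gene symbol, 10 of 10, in a deposited table of 18448 genes with raw read counts for 6 libraries. They were put together by function after the treatment comparison had been seen, in which Cps1 and Agmat were among the largest falls. Their differences between treatments are therefore given below as a description and without p-values.

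Poly(A) RNA was sequenced from mouse jejunal organoids, which are epithelial cultures grown from the middle part of the small intestine. The 4OHT group, 3 libraries, was exposed to 0.5 µM 4-hydroxytamoxifen (4OHT) for 24 h, and the other 3 libraries received the vehicle DMSO. Organoids of both groups were C57BL/6, carried Villin-CreERT2 (a 4OHT-inducible Cre recombinase driven by the epithelial villin promoter) and 2 floxed copies of Hnf4a, were given recombinant Wnt3A at 200 ng/mL, and were harvested on day 2 after passage. Libraries of Cre-free organoids with 4OHT were not analysed here, so the actions of 4OHT, of active Cre and of Hnf4a loss cannot be told apart.

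The urea cycle turns ammonia into urea, and in full it is a pathway of hepatocytes. Its first steps run in mitochondria, where Nags makes the activator of Cps1, Cps1 makes carbamoyl phosphate, and Otc joins that to ornithine to give citrulline. In the cytosol Ass1 and Asl turn citrulline into arginine, and arginase (Arg1 in the cytosol, Arg2 in mitochondria) splits arginine into urea and ornithine. The small intestine uses the mitochondrial part to make citrulline from glutamine, with ornithine supplied by Oat, and releases it for arginine synthesis in the kidney. Odc1 converts ornithine to putrescine, the first polyamine, and Agmat is named for the hydrolysis of agmatine, a decarboxylated form of arginine, to putrescine and urea.

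Library totals ran from 34912396 to 40276242 counts in 4OHT and from 31537100 to 36102703 in DMSO, and 14544 genes were tested. Hnf4a, the floxed nuclear receptor gene, measured 436, 424 and 482 CPM (a gene's counts relative to the library size, after TMM adjustment of that size) in 4OHT libraries, against 840, 846 and 1021 CPM in DMSO libraries. It was lower in every 4OHT library (log2 fold change -1.01, SE 0.10, edgeR adjusted p = 0.0124, and 0.00308 with the replicate number as a block), a call that was lost on leaving out any 1 library except DMSO replicate 3 (adjusted p from 0.0572 to 0.0951). Those fits called from 4 to 20 of all tested genes, against 132 with all 6 libraries. The exons deleted were not stated, so the gene-level counts of Hnf4a cannot give the share of recombined alleles. DMSO replicate 3 stood apart from the other DMSO libraries: its chi-square statistic per degree of freedom was 64.2 and 58.5 against replicates 1 and 2, beside 7.86 between those libraries. Among 4OHT libraries the same statistic was 15.6 to 31.4. All 6 epithelial markers were abundant, at a summed 15498 to 18990.3 CPM in 4OHT and 12730.2 to 17321 CPM in DMSO. Of 7 hepatocyte markers, Tat and Serpina1a were not in the table Alb had 15 counts over all libraries, and the 5 found summed to 15.6 to 19.6 CPM in 4OHT and 15.4 to 29.5 CPM in DMSO. Of the 4 hepatocyte markers tested (median log2 fold change -1.29), 1 (Cyp2e1, named after its values were seen) was called lower by edgeR and by limma-voom and 2 by DESeq2 and with the block. Of all tested genes edgeR called 0.206% lower, limma-voom 28 of 14544, DESeq2 1.83% and the block fit 3%. Of 6 macrophage markers, Adgre1 was not in the table, Ptprc had 16 counts, and the 5 found summed to 15.3 to 20.2 CPM in 4OHT and 12.7 to 13.6 CPM in DMSO, without overlap. Of the 4 macrophage markers tested (median log2 fold change 0.54), edgeR, limma-voom and the block fit called 0 and DESeq2 1 higher. At an unadjusted p under 0.05 edgeR had 2 of these 4 higher. Of all tested genes DESeq2 called 3.41% higher, and edgeR had 8.65% higher at that unadjusted p.

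RefSeq sequence before the transcription start (GRCm38.p6) was at hand for 6 of the 10 genes: Agmat, Ass1, Nags, Oat, Odc1 and Otc. The 250 bases before each start were searched on both strands for CAAAGNNCA, letters of the type of site bound by HNF4 proteins, and for the E-box CACGTG, a palindrome bound by MYC-type factors. Matches to the HNF4-type letters and to the E-box lay in different genes. The windows of 4 genes with lower means in the 4OHT group and of Ass1, whose mean was not lower, are shown so that they can be compared, with matches to either motif in capitals. They are chr4:141746425-141746674 (Agmat, plus strand), chr11:102145263-102145512 (Nags, plus strand), chrX:10252055-10252304 (Otc, plus strand), chr7:132576399-132576648 (Oat, minus strand) and chr2:31470020-31470269 (Ass1, plus strand).
Agmat: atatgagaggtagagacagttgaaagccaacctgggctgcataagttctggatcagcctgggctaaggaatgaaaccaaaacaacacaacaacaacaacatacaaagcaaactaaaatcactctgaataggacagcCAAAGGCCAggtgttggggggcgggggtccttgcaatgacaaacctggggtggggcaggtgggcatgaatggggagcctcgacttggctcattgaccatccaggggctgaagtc
Nags: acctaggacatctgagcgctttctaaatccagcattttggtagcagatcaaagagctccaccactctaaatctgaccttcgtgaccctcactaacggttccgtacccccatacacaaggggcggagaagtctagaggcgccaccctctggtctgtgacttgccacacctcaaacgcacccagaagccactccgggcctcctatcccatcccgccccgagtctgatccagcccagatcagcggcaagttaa
Otc: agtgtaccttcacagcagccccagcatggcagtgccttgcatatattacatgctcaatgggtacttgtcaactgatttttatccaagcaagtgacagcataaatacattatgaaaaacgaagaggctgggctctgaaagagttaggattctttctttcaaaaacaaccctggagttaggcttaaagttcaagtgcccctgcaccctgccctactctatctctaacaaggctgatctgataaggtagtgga
Oat: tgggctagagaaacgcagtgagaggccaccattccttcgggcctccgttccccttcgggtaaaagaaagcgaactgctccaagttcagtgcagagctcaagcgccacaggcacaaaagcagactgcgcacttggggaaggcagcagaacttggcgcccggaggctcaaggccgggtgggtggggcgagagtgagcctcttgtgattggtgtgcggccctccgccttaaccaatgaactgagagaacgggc
Ass1: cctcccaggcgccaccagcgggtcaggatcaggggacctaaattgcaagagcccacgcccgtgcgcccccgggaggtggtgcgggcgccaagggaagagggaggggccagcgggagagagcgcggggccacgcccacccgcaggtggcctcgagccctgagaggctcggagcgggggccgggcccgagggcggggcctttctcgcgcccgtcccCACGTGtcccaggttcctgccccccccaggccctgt
Agmat was the only one of the 6 genes with a match to CAAAGNNCA, which begins 114 bases before this start as CAAAGGCCA. A further annotated Agmat start lies downstream at position 141746777 of chromosome 4; its window holds the same match and also TGCCCTTTG, a match on the minus strand 31 bases before that start. CAAAGNNCA occurs in 5.49% of the 32851 promoter windows in the RefSeq table. Ass1 was the only one of the 6 with CACGTG, 36 bases before its start, and 6.02% of all windows hold that motif. With the stricter letters CAAAGTCCA, found in 0.384% of all windows, 0 of the 6 genes matched. A match of letters is a description and does not show that a factor binds.

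The 6 mitochondrial enzymes all had lower mean levels in the 4OHT group and the 3 cytosolic enzymes that were tested had slightly higher ones. Of the 10 genes 9 passed the filter on low counts, and Arg1 did not. At an adjusted p under 0.05 in edgeR's quasi-likelihood test 2 of the 9 were called, Cps1 and Agmat, both lower, where 0.206% of all tested genes were called lower and 0.701% higher (0.908% in either direction). limma-voom called the same 2 (0.846% of all tested genes) and DESeq2 4, with Nags and Oat added (5.24%), and at an unadjusted p under 0.05 edgeR had 5 lower and 1 higher (6.35% and 8.65%). With the replicate number as a block 3 of the 9 were called lower, the third being Nags, beside 3% of all tested genes called lower and 3.99% called higher (6.99% in either direction). The groups did not overlap for 4 genes with lower 4OHT values (Cps1, Agmat, Nags and Oat) and for 1 with higher values (Asl), while 10.1% and 12.5% of all tested genes were apart in these directions. The median log2 fold change of the 9 was -0.59, beside 0.00 for all tested genes. Because the genes were chosen with this contrast in view, nothing is read from these counts. In bulk RNA, fewer cells that express a gene and less of its RNA per cell cannot be told apart.

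**Figure D1:**
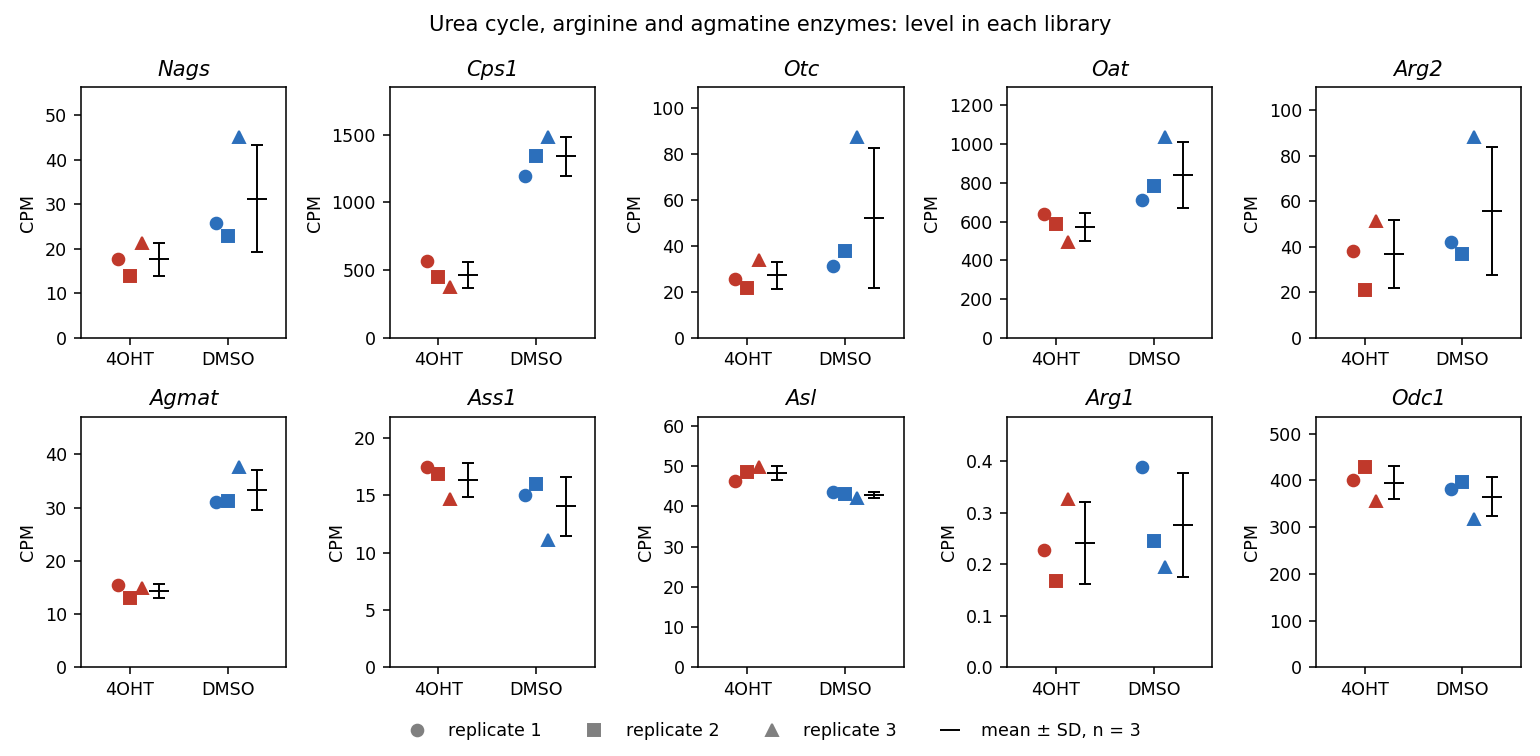
Level of each of the 10 enzymes in CPM in the 4OHT (red) and DMSO (blue) libraries, with 1 symbol per replicate number and the mean ± SD of 3 libraries in black; each panel has its own linear axis from 0. For Cps1, Agmat, Nags and Oat all red symbols lie under all blue ones, for Asl they lie above them, and the groups overlap for the other genes.

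Cps1 (ENSMUSG00000025991, chromosome 1 from 67123026 to 67231259, plus strand of GRCm38) encodes the enzyme that makes carbamoyl phosphate from ammonia and bicarbonate. It measured 567, 450 and 372 CPM in 4OHT replicates 1 to 3, against 1193, 1345 and 1481 CPM in DMSO replicates 1 to 3. Every 4OHT library lay far below every DMSO library, and replicate 3 was the lowest of the 4OHT group and the highest of the DMSO group. The means were 463 ± 98.3 CPM in 4OHT and 1339 ± 144 CPM in DMSO (SD, n = 3 each), a 2.89-fold lower level in 4OHT (log2 fold change -1.53, SE 0.16). Between libraries of the same number the log2 difference was -1.07, -1.58 and -1.99 for numbers 1, 2 and 3. Without replicate 3 of both groups the log2 fold change was -1.32. Single libraries moved the call more than the size: with 1 library left out the log2 fold change was between -1.71 and -1.40, but the call was lost without 4OHT replicate 2 (-1.51) or 3 (-1.40) and without DMSO replicate 1 (-1.61) or 2 (-1.53). Calls over all tested genes numbered 20, 12, 6 and 4 in these fits, against 132 with all 6 libraries.

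Nags (ENSMUSG00000048217, chromosome 11 from 102145513 to 102149477, plus strand) encodes N-acetylglutamate synthase, which makes the obligate activator of the Cps1 enzyme. It was at 17.6, 13.9 and 21.3 CPM in 4OHT libraries, against 25.8, 22.9 and 44.997 CPM in DMSO libraries. The groups did not overlap, though the highest 4OHT value lay just under the lowest DMSO value. The means were 17.6 ± 3.74 CPM in 4OHT and 31.2 ± 12.01 CPM in DMSO (SD, n = 3 each; log2 fold change -0.83, SE 0.28, and -0.79, SE 0.11 with the replicate block). DMSO replicate 3 carried part of this distance, and without it the log2 fold change was -0.47. Replicate 3 was the highest in both groups, and with it removed from both the log2 fold change was -0.64 (SE 0.13). An antisense gene, Gm11586, overlaps Nags, and since the strand setting of the counting was not stated its reads could be mixed with those of Nags.

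Otc (ENSMUSG00000031173, chromosome X from 10252305 to 10321024, plus strand) encodes ornithine transcarbamylase, which makes citrulline. It was at 25.7, 21.8 and 33.7 CPM in 4OHT libraries, against 31.2, 37.9 and 87.0 CPM in DMSO libraries. Replicate 3 was highest in both groups, and the groups overlapped, since 4OHT replicate 3 exceeded DMSO replicate 1. The means were 27.1 ± 6.03 CPM in 4OHT and 52.0 ± 30.5 CPM in DMSO (SD, n = 3 each; log2 fold change -0.94, SE 0.39). Each numbered pair was lower in 4OHT, by log2 differences of -0.28, -0.79 and -1.37. The size rested largely on DMSO replicate 3: without it the log2 fold change was -0.35, and without replicate 3 of both groups it was -0.54.

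Oat (ENSMUSG00000030934, chromosome 7 from 132557478 to 132576398, minus strand) encodes ornithine aminotransferase, which in the gut forms ornithine from the glutamate and proline side. It was at 638, 586 and 497 CPM in 4OHT libraries, against 710, 782 and 1035 CPM in DMSO libraries. All 4OHT values lay below all DMSO values, with a narrow gap between 4OHT replicate 1 and DMSO replicate 1. The means were 573 ± 71.2 CPM in 4OHT and 842 ± 171 CPM in DMSO (SD, n = 3 each; log2 fold change -0.55, SE 0.16). As with Cps1, the numbered pairs spread widely, at log2 differences of -0.16, -0.42 and -1.06. Without replicate 3 of both groups the log2 fold change was -0.29. Fgfr2 overlaps Oat on the same strand, so some reads may be shared.

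Arg2 (ENSMUSG00000021125, chromosome 12 from 79130777 to 79156301, plus strand) encodes the mitochondrial arginase. It was at 38.3, 21.2 and 51.2 CPM in 4OHT libraries, against 42.1, 37.0 and 88.2 CPM in DMSO libraries. Values scattered within both groups and the groups overlapped, with replicate 3 the highest in each. The means were 36.9 ± 15.0 CPM in 4OHT and 55.8 ± 28.2 CPM in DMSO (SD, n = 3 each; log2 fold change -0.59, SE 0.41). Dropping DMSO replicate 3 alone moved the log2 fold change to -0.11, but replicate 3 was the highest in both groups. With replicate 3 removed from both groups the log2 fold change was -0.42. Dropping 4OHT replicate 2 gave -0.32 and dropping 4OHT replicate 3 gave -0.91, so the size depended on single libraries. All 3 numbered pairs were lower in 4OHT (log2 differences -0.14, -0.80 and -0.78). The fit with the replicate block gave -0.58 (SE 0.14), and Arg2 was not called in it. Vti1b, a gene on the opposite strand, overlaps Arg2.

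Agmat (ENSMUSG00000040706, chromosome 4 from 141746672 to 141759263, plus strand) was at 15.5, 12.95 and 14.8 CPM in 4OHT libraries. In DMSO libraries it was at 31.1, 31.3 and 37.6 CPM. Both groups were tight and far apart, and the distance was alike in the 3 numbered pairs, with log2 differences of -1.01, -1.27 and -1.34. The means were 14.4 ± 1.30 CPM in 4OHT and 33.3 ± 3.71 CPM in DMSO (SD, n = 3 each), a 2.31-fold lower level in 4OHT (log2 fold change -1.21, SE 0.11). With 1 library left out the log2 fold change stayed between -1.27 and -1.12, yet the call was lost without 4OHT replicate 1 (-1.27) or 3 (-1.23) and without DMSO replicate 1 (-1.26) or 2 (-1.25). Calls over all tested genes numbered 9, 12, 6 and 4 in these fits, against 132 with all 6 libraries.

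The cytosolic enzymes moved little. Asl (ENSMUSG00000025533, chromosome 5 from 130011258 to 130029247, minus strand), which encodes argininosuccinate lyase, was at 46.3, 48.6 and 49.8 CPM in 4OHT libraries, against 43.5, 43.1 and 42.1 CPM in DMSO libraries. Its values were the most even of the 10 genes within each group, and the small distance left no overlap (log2 fold change 0.17, SE 0.06). Ass1 (ENSMUSG00000076441, chromosome 2 from 31470207 to 31520672, plus strand), which encodes argininosuccinate synthase, was at 17.5, 16.9 and 14.7 CPM in 4OHT libraries, against 15.0, 16.0 and 11.1 CPM in DMSO libraries. The groups overlapped, and replicate 3 was the lowest of each group (log2 fold change 0.22, SE 0.15, and 0.07 without DMSO replicate 3). Odc1 (ENSMUSG00000011179, chromosome 12 from 17544794 to 17551505, plus strand), which encodes ornithine decarboxylase, was at 401, 428 and 357 CPM in 4OHT libraries, against 382, 396 and 318 CPM in DMSO libraries. Its groups overlapped too, again with replicate 3 lowest in both (log2 fold change 0.11, SE 0.11, and 0.02 without DMSO replicate 3), and a snoRNA gene, Gm22748, lies within its span.

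Arg1 (ENSMUSG00000019987, chromosome 10 from 24915221 to 24927484, minus strand), the arginase of the hepatocyte cytosol, was close to undetected. It had 8, 6 and 13 counts in 4OHT libraries, against 14, 9 and 6 counts in DMSO libraries, which is 0.169 to 0.327 CPM and 0.195 to 0.389 CPM. The groups overlapped, and a change of Arg1 was not detectable at this depth. Of the arginase genes, Arg2 was the one with the higher level per length in every library.

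**Figure D2:**
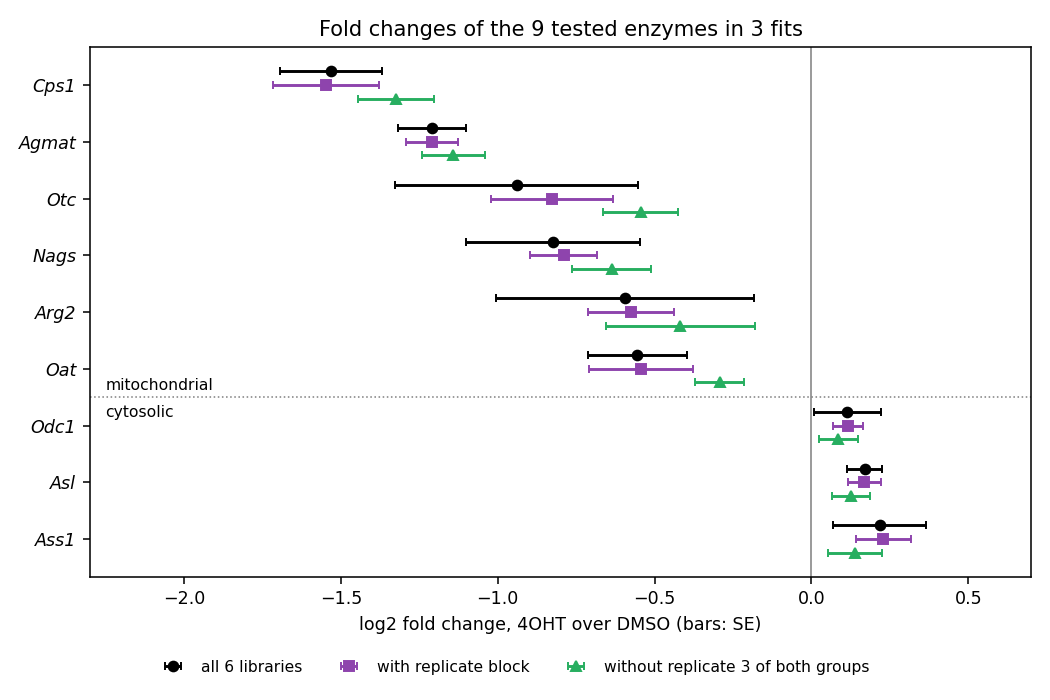
log2 fold change of 4OHT over DMSO with its SE for the 9 tested enzymes, from all 6 libraries, with the replicate block, and without replicate 3 of both groups. The 6 mitochondrial enzymes lie below 0 and the 3 cytosolic ones above 0 in each fit. All 9 lie nearer to 0 without replicate 3 of both groups than with all 6 libraries, among them Otc (-0.54 against -0.94) and Oat (-0.29 against -0.55).

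The signs held in every alternative that was run: all 6 mitochondrial enzymes were below 0 and the 3 tested cytosolic enzymes above 0 under each scaling, filter, test and left-out library. The median over all tested genes stayed within -0.01 and 0.00 log2 units in those fits. All of them draw on the same 6 libraries, and the genes were chosen with this contrast in view, so the shared signs are a description. Some lay within their SE of 0: without DMSO replicate 3, Odc1 was at 0.02 (SE 0.08), Ass1 at 0.07 (SE 0.10) and Arg2 at -0.11 (SE 0.31). Taken as shares of the counts of all 10 genes, Cps1 made up 32.1%, 28.2% and 26.3% in 4OHT libraries and 48.2%, 49.6% and 47.1% in DMSO libraries. Oat made up 36.1%, 36.6% and 35.2% in 4OHT libraries and 28.7%, 28.8% and 32.9% in DMSO libraries. Thus Cps1 contributed most reads of the 10 genes in each DMSO library and Oat most in each 4OHT library. The 10 genes together summed to 1767, 1600 and 1411 CPM in 4OHT libraries, against 2473, 2711 and 3145 CPM in DMSO libraries.

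Ratios between members within a library do not depend on how libraries are scaled. Cps1 counts over Odc1 counts were 1.41, 1.05 and 1.04 in 4OHT libraries, against 3.13, 3.40 and 4.65 in DMSO libraries, with no overlap. Cps1 over Oat was 0.890, 0.769 and 0.749 in 4OHT libraries, against 1.68, 1.72 and 1.43 in DMSO libraries, also apart. Cps1 over Otc was 22.1, 20.6 and 11.05 in 4OHT libraries, against 38.3, 35.5 and 17.01 in DMSO libraries, and here the groups overlapped because DMSO replicate 3 was low. Asl over Ass1, the cytosolic pair, was 2.65, 2.89 and 3.39 in 4OHT libraries, against 2.90, 2.69 and 3.79 in DMSO libraries, with full overlap.

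Levels of different genes were compared as CPM per kilobase of exon. In both groups Oat was highest and Arg1 lowest, and Cps1 and Odc1 changed places. In the DMSO group Oat (301 to 439 CPM per kb), Cps1 (215 to 267) and Odc1 (93.5 to 116) followed each other without overlap. Below them came Arg2 (25.9 to 61.7) and Agmat (22.1 to 26.7), whose ranges overlapped. Otc (7.35 to 20.5), Nags (8.07 to 15.9) and Asl (8.71 to 9.01) also overlapped, and Ass1 (4.60 to 6.63) and Arg1 (0.0875 to 0.175) lay lower. In the 4OHT group the order was Oat (211 to 270 CPM per kb), Odc1 (105 to 126), Cps1 (66.9 to 102) and Arg2 (14.9 to 35.8), with no overlap between neighbours. Agmat (9.21 to 10.99) and Asl (9.58 to 10.3) overlapped there, as did Ass1 (6.09 to 7.24), Otc (5.15 to 7.94) and Nags (4.88 to 7.51). The places of the middle genes depend on the length taken: per kilobase of the longest transcript Asl averaged 20.0 in 4OHT and 17.8 in DMSO, and passed Agmat in 4OHT and Otc and Nags in DMSO.

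**Figure D3:**
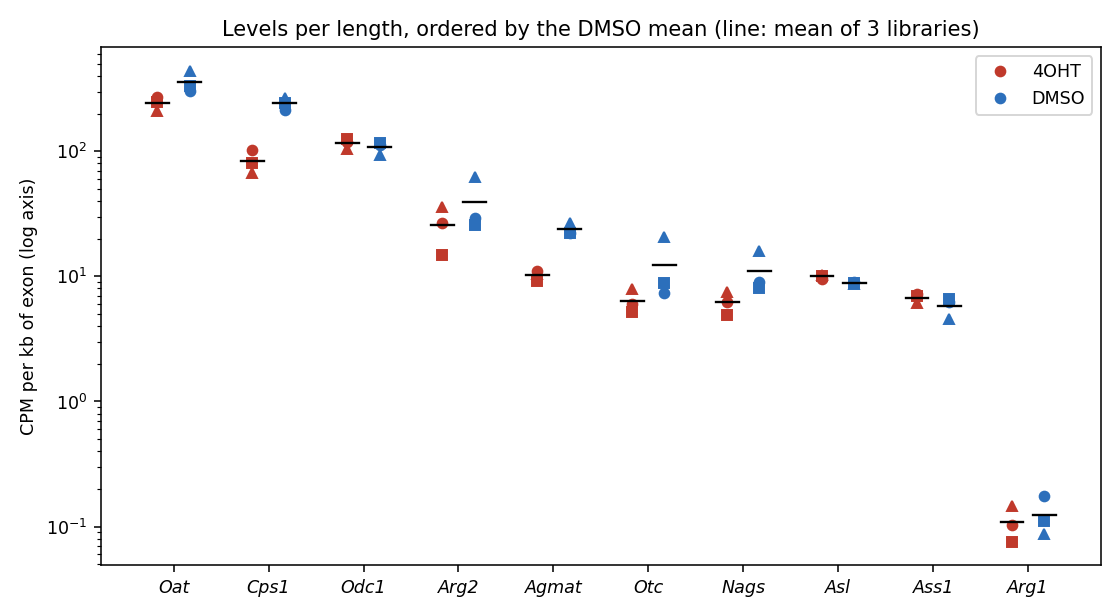
Level of the 10 enzymes per length, as CPM per kb of exon on a log axis, in 4OHT (red) and DMSO (blue) libraries, with circles, squares and triangles for replicates 1, 2 and 3 and a line at the mean of each group. Oat leads in both groups, Cps1 lies above Odc1 in DMSO and below it in 4OHT, and Arg1 lies far below the rest.

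Replicate 3 of each group was set against the mean log2 CPM of replicates 1 and 2, to show how the enzymes vary where the treatment is the same. Otc differed by 0.51 in 4OHT and 1.34 in DMSO, Arg2 by 0.84 and 1.16, and Nags by 0.45 and 0.89, all higher in replicate 3. Ass1 differed by -0.22 in 4OHT and -0.48 in DMSO, and Odc1 by -0.22 and -0.29, both lower in replicate 3. Cps1 and Oat went opposite ways: Cps1 by -0.44 in 4OHT and 0.23 in DMSO, and Oat by -0.30 and 0.47. Agmat differed by 0.07 and 0.27, and Asl by 0.07 and -0.04.

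Markers of cell types also differed between replicate 3 and replicates 1 and 2. The median of the enterocyte markers, genes of the absorptive cells, was 0.40 higher in replicate 3 in 4OHT and 0.87 higher in DMSO. Goblet cell markers differed by a like 0.59 in 4OHT and 0.84 in DMSO, stem cell and progenitor markers by -0.63 and -0.39, and proliferation markers by -0.12 and -0.13. Otc, Arg2, Nags and Agmat had the sign of the enterocyte and goblet medians in both groups, Agmat by only 0.07 in 4OHT and 0.27 in DMSO. Ass1 and Odc1 had the opposite sign in both groups, Cps1 and Oat in 4OHT, and Asl in DMSO (-0.04). All 12 enterocyte markers were in the table, and their summed level was 2181 to 3660 CPM in 4OHT and 3151 to 6675 CPM in DMSO. Between treatments all 12 had a negative log2 fold change (median -0.58), of which 0 were called by edgeR, 0 by limma-voom and 4, all lower, by DESeq2, which called 1.83% of all tested genes lower. At an unadjusted p under 0.05 edgeR had 5 of the 12 lower, beside 6.35% of all tested genes, and with the replicate block 4 were called lower, beside 3%. Goblet cell markers summed to 3114 to 5177 CPM in 4OHT and 1921 to 3615 CPM in DMSO, and all 6 had a positive log2 fold change (median 0.75). Of them edgeR and limma-voom called 0, DESeq2 1 higher and the block fit 5 higher, and 2 were higher at an unadjusted p under 0.05 in edgeR. Beside these, DESeq2 called 3.41% and the block fit 3.99% of all tested genes higher, and 8.65% were higher at that unadjusted p. Stem cell and progenitor markers summed to 1513 to 2173 CPM in 4OHT and 2218 to 2575 CPM in DMSO, and all 6 had a negative log2 fold change (median -0.34), with 0 called by edgeR, 2 lower at an unadjusted p under 0.05, 0 in DESeq2 and limma-voom and 1 lower with the block. Of 6 Paneth cell markers (median -0.05), 1 was called lower by edgeR, by limma-voom, by DESeq2 and with the block. Beside this, edgeR called 0.206% of all tested genes lower and limma-voom 28 of 14544. Of 6 enteroendocrine cell markers (median 0.24), edgeR, limma-voom and DESeq2 called 0 and the block fit 1 higher. Of 4 tuft cell markers (median 0.12), edgeR and limma-voom called 0, and DESeq2 and the block fit each called 1 higher. The part of cell composition in the enzymes' differences was not tested.

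**Figure D4:**
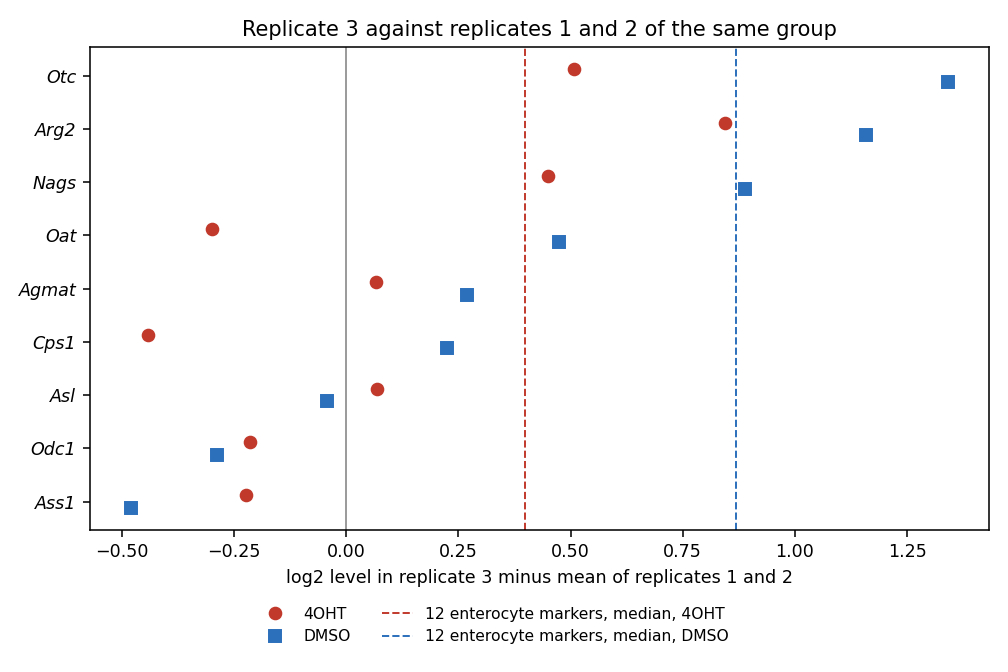
Difference in log2 CPM of replicate 3 from the average of its group's replicates 1 and 2 for the 9 tested enzymes, in 4OHT (red circles) and DMSO (blue squares), with dashed lines at the median of 12 enterocyte markers (0.40 and 0.87). Otc, Arg2 and Nags are high in replicate 3 of both groups, Ass1 and Odc1 are low, and Cps1 and Oat lie on opposite sides of 0 in the 2 groups.

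The genes whose profiles over the 6 libraries lay closest to Cps1 and Agmat were sought among 9132 other genes that averaged 10 CPM or more. Distance was the root mean square difference of log2 CPM after centring each gene, so 0 would be the same profile, and the libraries share their group and replicate number. Agmat was the closest gene to Cps1 (0.247), with Ckb (0.269), Slc1a1 (0.277) and Tstd1 (0.285) also among the 5 closest, where the median gene was at 0.803. Hnf4a was the closest gene to Agmat (0.121), with Slc16a12 (0.144), Ckb (0.146) and Tstd1 (0.160) also among the 5 closest, where the median gene was at 0.621. Within the enzymes, Agmat lay next to Cps1, then Nags (0.327), Oat (0.364), Otc (0.440) and Arg2 (0.536), and Odc1 (0.702), Asl (0.702) and Ass1 (0.771) were farthest. The search ranks genes on the same contrast that drew attention to Cps1 and Agmat and is a description.

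Neighbouring pathways were covered by 6 lists of genes picked by function, with 73 genes, of which 69 were in the table and 62 were tested. Of these 62, edgeR called 0, limma-voom 0 and DESeq2 1 higher and 4 lower, beside 3.41% of all tested genes called higher and 1.83% lower by DESeq2. The unadjusted p of edgeR was under 0.05 for 5 with higher and 10 with lower levels, beside 8.65% and 6.35% of all tested genes. With the replicate block 3 rose and 5 fell, 8 of 62, beside 3.99% of all tested genes called higher and 3% called lower. The median log2 fold change of the 62 was 0.00, like that of all tested genes. In the sentences below, a gene that rose or fell did so in edgeR's test with the replicate block. The adjusted p of that test is given after that of the test without the block. The log2 fold changes and SEs given there are from the fit without the block.

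On the glutamine, glutamate and proline route that supplies ornithine in the gut, 1 gene rose and 2 fell of 10 tested (median log2 fold change -0.21). Aldh18a1, whose enzyme makes the precursor of ornithine and proline from glutamate, was at 341, 304 and 287 CPM in 4OHT libraries, against 404, 384 and 445 CPM in DMSO libraries. The groups were apart, and Aldh18a1 fell with the block (log2 fold change -0.40, SE 0.09, adjusted p = 0.0957 and 0.0448). Pycrl, which encodes a pyrroline-5-carboxylate reductase, also fell with the block, averaging 71.8 ± 2.98 CPM in 4OHT and 96.7 ± 17.4 CPM in DMSO (SD, n = 3 each; -0.43, adjusted p = 0.165 and 0.0414, and -0.28 without DMSO replicate 3). Gls2, a glutaminase gene, averaged 9.75 CPM in 4OHT and 12.9 CPM in DMSO without passing either edgeR test (-0.40, adjusted p = 0.1005 and 0.0581), and was among the 5 genes DESeq2 called (adjusted p = 0.0150).

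Among 14 tested carriers of cationic amino acids, urea cycle intermediates and urea, 0 rose and 2 fell (median log2 fold change -0.09). Slc25a15, the mitochondrial ornithine and citrulline exchanger, was at 106, 89.4 and 114 CPM in 4OHT libraries, against 127, 128 and 204 CPM in DMSO libraries. DMSO replicate 3 stood above the other libraries, as for Otc, and Slc25a15 fell with the block (-0.57, SE 0.20, adjusted p = 0.242 and 0.0435, and -0.31 without DMSO replicate 3). Slc7a9, a subunit of the apical transporter of arginine, lysine and cystine, was at 26.7, 20.1 and 34.2 CPM in 4OHT libraries, against 38.7, 34.9 and 51.3 CPM in DMSO libraries. It was lower in each numbered pair and fell with the block (-0.62, SE 0.22, adjusted p = 0.242 and 0.0123). Slc25a12, an aspartate and glutamate carrier, and Slc7a2, a cationic amino acid transporter, passed neither test (0.20, adjusted p = 0.268 and 0.118, and -0.65, adjusted p = 0.329 and 0.182).

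Of 10 tested genes for other uses of arginine 0 rose and 1 fell (median log2 fold change 0.03). Nos2, the inducible nitric oxide synthase, was at 1.603, 2.30 and 2.92 CPM in 4OHT libraries, against 5.61, 5.06 and 5.003 CPM in DMSO libraries. Every 4OHT library was below every DMSO library at this low level, and Nos2 fell with the block (-1.19, SE 0.22, adjusted p = 0.0654 and 0.0341). Ddah1, which clears methylated arginines, averaged 133 CPM in 4OHT and 110 CPM in DMSO (0.27, adjusted p = 0.335 and 0.0928, and 0.14 without DMSO replicate 3). Gatm, the first enzyme of creatine synthesis, averaged 0.531 CPM in 4OHT and 0.249 CPM in DMSO, and Ate1, which adds arginine to proteins, 42.6 CPM and 40.6 CPM, neither passing a test (adjusted p = 0.488 and 0.188 for Gatm, and 0.652 and 0.481 for Ate1). The log2 fold change of Gatm was 1.03, with 0.55 without DMSO replicate 3 and 1.68 without DMSO replicate 2, and that of Ate1 was 0.07, with 0.034 without DMSO replicate 1 and 0.11 without DMSO replicate 3.

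Downstream of Odc1, 1 of 16 tested genes of polyamine synthesis and turnover rose and 0 fell (median log2 fold change 0.05). Smox, the spermine oxidase, was at 69.2, 54.1 and 55.3 CPM in 4OHT libraries, against 52.0, 45.5 and 32.7 CPM in DMSO libraries. The groups were apart by a small margin, and Smox rose with the block (0.45, SE 0.18, adjusted p = 0.294 and 0.0478, and 0.28 without DMSO replicate 3). Mtap, which salvages the by-product of polyamine synthesis, Azin1, an activator of ornithine decarboxylase, and Amd2, an adenosylmethionine decarboxylase gene, had log2 fold changes of 0.31, -0.18 and 0.30 and passed neither test (adjusted p = 0.275, 0.346 and 0.467, and 0.0921, 0.0951 and 0.381 with the block). That of Mtap was 0.18 without DMSO replicate 3. Amd2 has a near-identical relative, Amd1, with which it could share reads.

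On the aspartate and fumarate side of the cycle, 1 of 7 tested genes rose and 0 fell (median log2 fold change -0.11). Asns, the asparagine synthetase, was at 204, 228 and 191 CPM in 4OHT libraries, against 176, 180 and 149 CPM in DMSO libraries. It was higher in every 4OHT library and rose with the block (0.30, SE 0.10, adjusted p = 0.211 and 0.0253). Mdh1 and Fh1, which turn over malate and fumarate, and Asrgl1, an asparaginase, had log2 fold changes of -0.25, -0.11 and -0.29 without passing (adjusted p = 0.413, 0.484 and 0.492, and 0.0796, 0.311 and 0.229 with the block). Those of Mdh1 and Fh1 were -0.11 and -0.063 without DMSO replicate 3, and that of Asrgl1 was -0.12 without 4OHT replicate 3. Of 5 tested genes of pyrimidine synthesis, where the cytosolic carbamoyl phosphate goes, 0 rose and 0 fell (median log2 fold change 0.03). The 4 with the smallest p-values, Dhodh (-0.14), Umps (0.10), Ctps2 (-0.08) and Ctps (0.09), had adjusted p between 0.412 and 0.784, and between 0.179 and 0.596 with the block. Umps was at 0.031 without DMSO replicate 3, Ctps2 at -0.030 without DMSO replicate 2 and -0.12 without 4OHT replicate 1, and Ctps between -0.045 and 0.18 with 1 library left out.

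**Figure D5:**
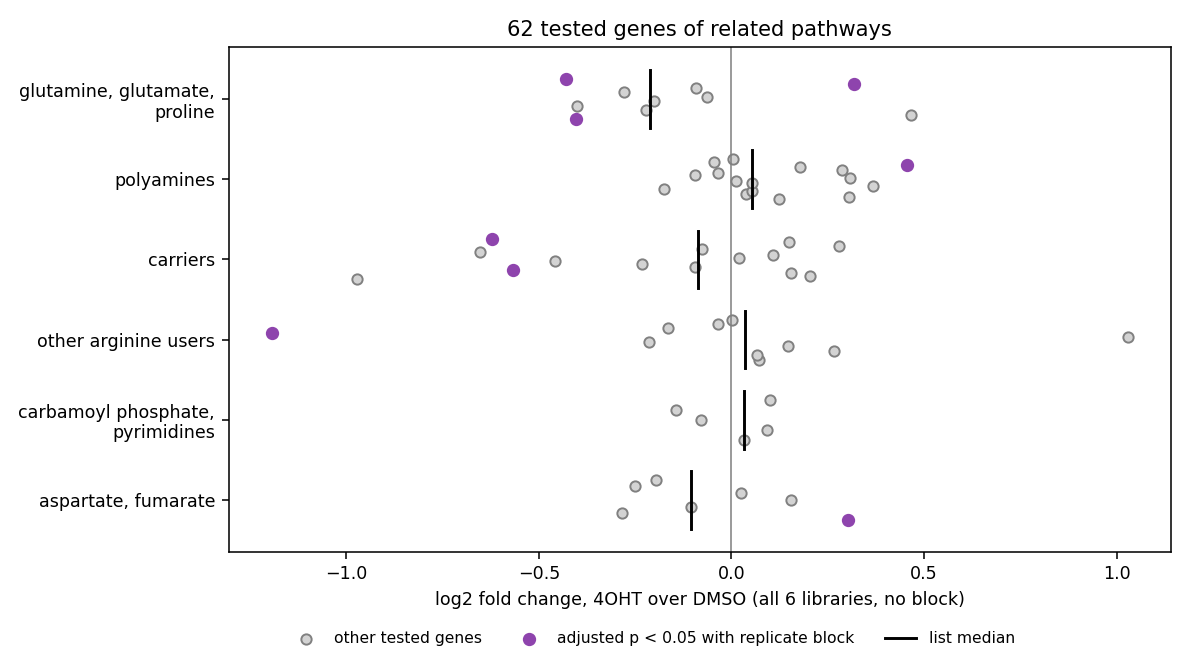
log2 fold change of 4OHT over DMSO without the block for 62 tested genes of 6 related pathways, 1 point per gene, with the median of each list as a black bar and genes that passed at an adjusted p under 0.05 with the replicate block in purple. The 5 purple genes on the left of 0 are Nos2, Slc7a9, Slc25a15, Pycrl and Aldh18a1, and the 3 on the right include Smox (0.45) and Asns (0.30).

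In the authors' deposited table the adjusted p from their edgeR run was under 0.05 for 5 of the 10 enzymes (Cps1, Agmat, Oat, Nags and Otc) and for 3.65% of all 18448 genes. In the authors' deposited table the adjusted p from DESeq was under 0.05 for 2 of them, Cps1 and Agmat, and for 1.63% of all genes. The versions and models behind those columns were not stated.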

How the data were processed

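RNA of 6 libraries (250 ng each) went through poly(A) selection and a strand-marking library kit, per the labels' protocols. STAR 2.4.0f1, bcl2fastq 1.8.4 and GRCm38 are named, per the submitters' processing notes; the counting program and its strand setting are not given in the sources used here. The authors deposited raw counts per gene, and every listed gene has at least 10 counts over the 6 libraries. The deposited normalised score of each gene and library was not used. The deposited log2 fold changes and log2 levels, and the deposited p-values, were used only where named.

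Counts were tested in R 4.3.3 with edgeR 4.0.16: filterByExpr kept 14544 genes and removed 3904, library sizes were adjusted by TMM, the trimmed mean of M-values, and 4OHT was tested over DMSO by the two-sided quasi-likelihood F test with Benjamini-Hochberg adjustment over all tested genes and a threshold of 0.05. DESeq2 1.42.0, limma 3.58.1 (limma-voom), other scalings and filters, each library left out and the replicate number as a block were alternatives. The procedure was tried on simulated data. GENCODE M21 held 18358 of the 18448 identifiers and gave coordinates and exon lengths.

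The labels do not say that a replicate number marks a shared culture. Deviations from the group means correlated across genes at 0.29, 0.31 and 0.41 between libraries of the same number. Between other libraries the correlation was -0.35 to 0.07. As every same-number pair was above 0.1, the replicate number was taken as a block in an alternative fit. The main edgeR fit had the group only, so its calls and SEs do not use the pairing. Nothing says that replicates came from separate animals or lines, so p-values cover only the spread among these 6 libraries, which may be technical.

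The members and lists were chosen with earlier results of these data known. Genes named are the 10 enzymes, Hnf4a, from each related list the genes called with or without the block, filled up to 4 by the smallest p, and the 5 nearest profiles to Cps1 and to Agmat. Some genes that this rule names are not reported here.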

Additional observations from a re-analysis of the deposited data

How the results depend on the processing

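Calls, and the sizes for some enzymes, depended on the test or on single libraries. Of all tested genes edgeR called 132, DESeq2 762, the fit with the replicate block 1017, the fit without replicate 3 of both groups 601, that fit with the replicate block (added after the data were seen) 2678, and the filter at 10 CPM in 3 libraries, which tested 9405 genes, 56; with 1 library left out the number ran from 4 (without DMSO replicate 2) to 340 (without DMSO replicate 3). Among the 62 related genes the numbers were 0 in edgeR, 5 in DESeq2, 8 with the replicate block, 3 without replicate 3 of both groups and 19 in that fit with the replicate block, and 0 in every fit with 1 library left out. Among the 9 tested enzymes they were 2 in edgeR, 4 in DESeq2 (Cps1, Agmat, Nags and Oat) and 3 with the replicate block. They were 6 in the block fit without replicate 3, which called 2678 of 14654 tested genes, and from 0 to 2 with 1 library left out. Hnf4a kept its direction, with log2 fold changes from -1.07 to -0.92 with 1 library left out, and passed the threshold only without DMSO replicate 3 among those fits. Ctps, a gene that passed no test, ran from -0.045 (without DMSO replicate 3, a change of sign) to 0.18 with 1 library left out. The cause of these differences was not tested. The log2 fold changes of the 9 enzymes kept their sign in every alternative and moved by less than 1 SD of the replicates in all but the fits without replicate 3 of both groups, with and without the block, where Oat (-0.29) and Asl (0.13) moved by more. The replicate block changed the call of 1 enzyme, Nags. With 1 library left out Otc ran from -1.20 to -0.35, Arg2 from -0.91 to -0.11, Ass1 from 0.07 to 0.32 and Odc1 from 0.02 to 0.18, none of them called. Arg1, with 6 to 14 counts per library, is limited by depth.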
